A study of Arabidopsis thaliana with 22 samples.

Results

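The late repressed genes are transcripts of etiolated Arabidopsis thaliana seedlings that stood near their dark level after 1 h of light and were well below it after 6 h. They were chosen from measured values: the group means of the 1 h libraries lay within 0.5 of 0 h on the log2(CPM + 1) scale in blue and in red light, and those of the 6 h libraries lay at least 1.5 below 6 h dark in blue, red and white light. CPM is a gene's count scaled to a fixed library total. The rule leaves out 8 genes by name, of which 1, the isocitrate lyase gene ICL (AT3G21720), met both conditions. The remaining set holds 31 of 33602 genes in the table. A total of 124 genes passed the 6 h limit in all 3 colours, and 25.8% of these also met the 1 h limit. Because the rule used the 1 h and 6 h values, the levels and changes of the members in those comparisons are a description and carry no test.

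Seedlings of ecotype Col-0 were grown for 6 days in darkness on medium with sucrose. They were then given continuous blue light for 1 or 6 h, continuous red light for 1 or 6 h, or continuous white light for 6 h, and each colour series had its own libraries from the start (0 h) and from seedlings left dark for those 6 h. Each of the 11 groups had 2 libraries, 22 in all, made from total RNA of etiolated seedlings. The labels do not say whether replicates were separate cultures, so p-values measure only the spread between these libraries, which may be technical. Total counts ran from 59054903 to 138804638 in the 10 light libraries and from 35000731 to 72685876 in the 12 dark libraries. Light libraries were duplexed and dark libraries quadruplexed, so pooling and light cannot be told apart. In RNA of bulk seedlings, fewer cells of a type and less RNA per cell cannot be told apart either. Levels below are CPM on the TMM-normalised library size, and changes are log2 differences from edgeR with their standard error (SE). All 31 members passed the filter on low counts.

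An etiolated seedling lives on stored oil and protein and grows a long hypocotyl under a closed hook. On exposure to light it stops elongating, opens its cotyledons and builds photosynthetic plastids, and genes of the dark programme are switched off in the process. The microRNA miR156 acts in another developmental choice: it pairs with messages of SPL transcription factors, which promote the change from juvenile to adult growth, and so keeps the plant juvenile. It is made from several loci as a hairpin precursor that is cut to a mature RNA.

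The locus of MIR156f carried 3 of the 31 members, so its sequences are given first. The mature RNA of its 5′ arm and that of its 3′ arm read as follows in RefSeq's TAIR10.1 annotation, with the seed, bases 2 to 8, in capitals.
ath-miR156f-5p: uGACAGAAgagagugagcac
ath-miR156f-3p: gCUCACUCucuauccgucacc
All 10 annotated 5′-arm miR156 RNAs share this seed, and 6 of them are identical to miR156f-5p over their 20 bases. The precursor, at chr5:9136106-9136237 on the plus strand of TAIR10.1, is shown with both mature arms in capitals.
MIR156f precursor: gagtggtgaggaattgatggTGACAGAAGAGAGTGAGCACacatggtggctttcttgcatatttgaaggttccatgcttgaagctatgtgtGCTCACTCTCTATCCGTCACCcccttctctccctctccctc
The messages it pairs with carry the complement. The best matching sites of 3 SPL genes are given with paired bases in capitals and mismatches in lower case.
SPL9 site: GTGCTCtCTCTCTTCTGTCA
SPL3 site: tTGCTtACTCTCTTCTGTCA
SPL5 site: ccGCTCtCTCTCTTCTGTCA
Of 11 SPL genes searched, 8 had exactly 1 mismatch, the site of SPL9 among them, and SPL5 had the most, 3.

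As a group the members stood near the 0 h level in darkness and after 1 h of light, and well below it after 6 h. In 6 h light they were left with between 6.78% and 35.1% of the 6 h dark mean, with a median of 22.3%. All 6 h light libraries lay below all 6 h dark libraries for 30 of 31 members, against 12.9% of the 23011 genes kept. They lay below all of the other 16 libraries for the same number, 30, against 6.24% of genes kept. By edgeR's quasi-likelihood test at a Benjamini-Hochberg adjusted p under 0.05, 30 members were lower in each colour, against 14.6% of all genes in blue, 10.1% in red and 18.4% in white. The rule used these libraries, so nothing is read from these shares. The exception was AT5G39520, which encodes a protein of unknown function with a DUF1997 domain. It had 0.419 to 2.66 CPM in the 6 h light libraries, against 1.88 to 16.9 CPM in the 6 h dark libraries, and in 1 h light it had 1.05 CPM in blue replicate 1 and 8.19 CPM in blue replicate 2. Its replicate 2 was above replicate 1 in all 11 groups, and for each replicate number of a series 6 h light was below 6 h dark.

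**Figure D1:**
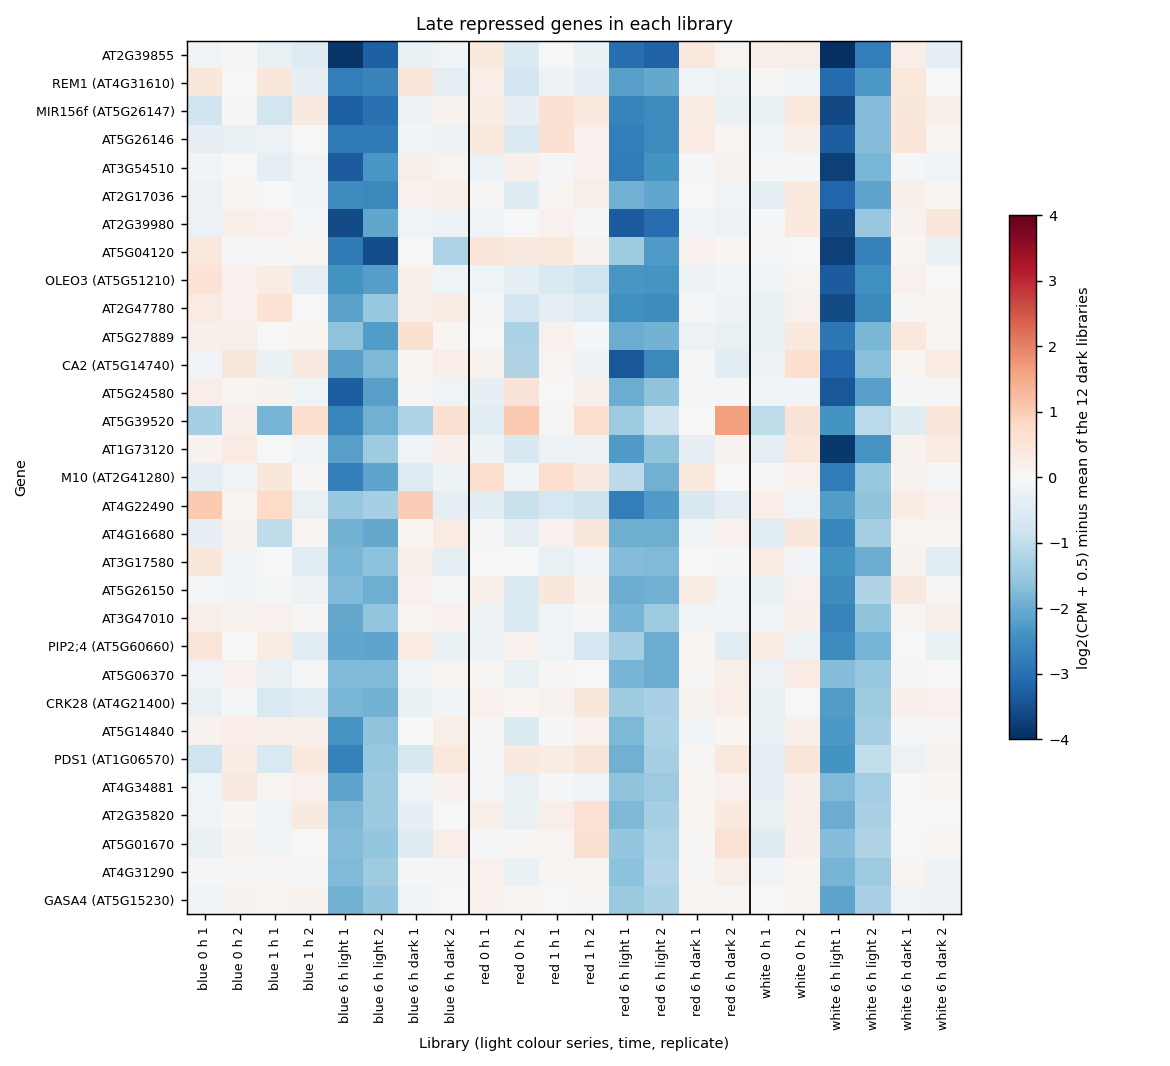
Each row is a late repressed gene and each column a library; colour gives log2(CPM + 0.5) minus the mean of the 12 dark libraries of that gene. The 6 h light columns are blue in every row, down to a median of 22.3% of 6 h dark, and within white light replicate 1 is lower than replicate 2 in all 31 rows.

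In medians, the members stood below 0 h in 6 h light and stayed near it in 6 h dark. The rule used all of these libraries but white 0 h, so this is a description without a test. Averaged over the 3 series, the median member differed by -2.18 between 6 h light and 0 h and by 0.05 between 6 h dark and 0 h. In the 3 series the median of 6 h light minus 0 h was -2.16 in blue, -1.87 in red and -2.41 in white, against 0.03, 0 and 0.01 for the median of all genes. The median of 6 h dark minus 0 h was -0.05 in the blue series, 0.17 in the red series and 0.07 in the white series. All 31 members lay within 0.5 of 0 in the mean dark change, as did 96.9% of genes kept. Those that drifted most in darkness, among members with at least 10 CPM, were AT5G04120, of the phosphoglycerate mutase family, at -0.35 (SE 0.23) and the protein kinase gene AT5G26150 at 0.21 (SE 0.19). The 6 h light minus 0 h changes of the same genes were -2.95 (SE 0.25) and -1.80 (SE 0.20). The next in the downward direction were PIP2;4 (-0.19), AT5G24580 (-0.13) and GASA4 (-0.12), and in the upward direction AT5G26146 (0.20), AT4G16680 (0.18) and MIR156f (0.17).

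**Figure D2:**
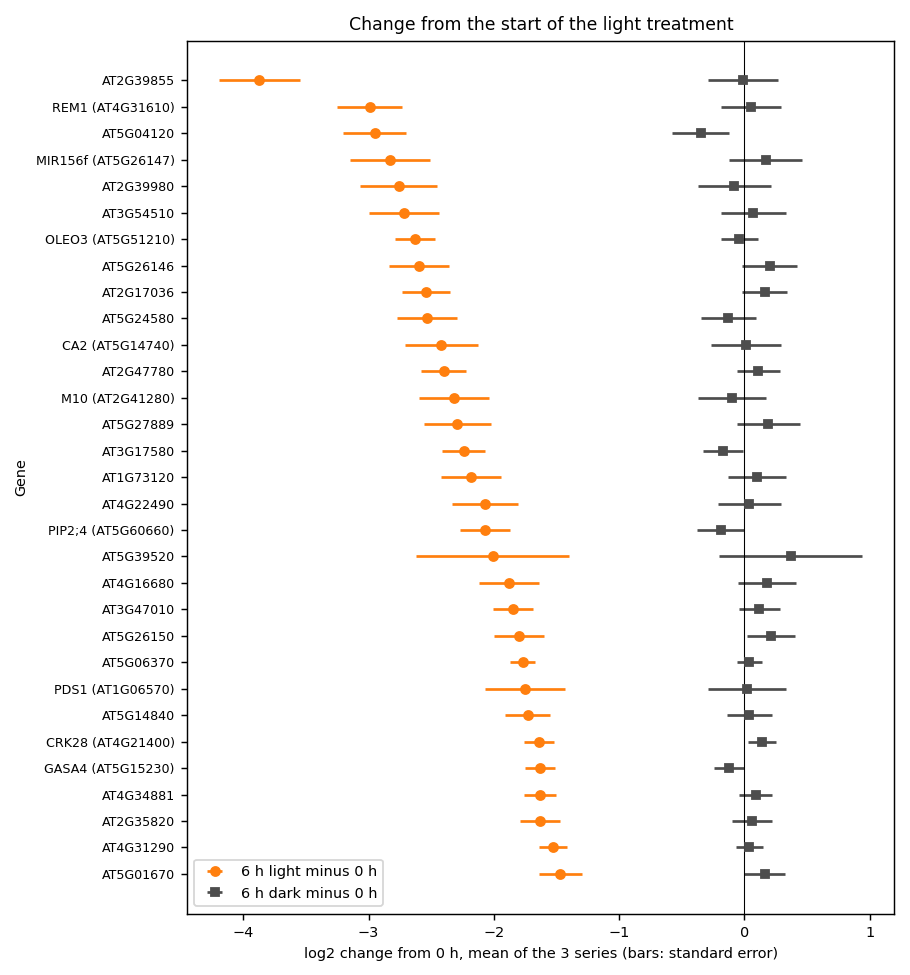
Points give the log2 change from 0 h, averaged over the blue, red and white series, for 6 h light (circles) and for 6 h dark (squares), with bars for 1 standard error. The circles run from -3.87 to -1.47, and all squares lie within 0.5 of 0.

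By the rule, the change in blue and red light came between 1 h and 6 h. White light had no 1 h library. Blue light showed a median of -2.06 for 6 h minus 1 h, and red light one of -2.0. At 1 h the medians were -0.07 in blue and 0.15 in red, which the rule held near 0. The members nearest the 1.5 limit on the scale of the rule were M10 and PIP2;4, both with a smallest change of -1.51, and AT5G39520 with -1.53. Just outside stood OZF2 (AT4G29190), a zinc finger gene, with -1.43, PCK1 (AT4G37870), the enzyme that starts sugar synthesis from stored oil, with -1.42, and SAG20 (AT3G10985), a senescence-associated gene, with -1.40.

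Within the MIR156f locus the precursor had 1.93 and 2.46 CPM in blue 6 h light, against 19.5 and 25.0 CPM in blue 6 h dark. In red it had 3.13 and 3.48 CPM in 6 h light, against 28.3 and 18.7 CPM in 6 h dark. White light left 1.39 and 6.44 CPM, against 31.4 and 26.3 CPM in white 6 h dark. No light library at 6 h reached the lowest value of the dark ones, and the higher of the white libraries was the nearest. The mean change was -3.01 (SE 0.32), leaving 12.6% of the 6 h dark level. At 1 h the locus still had 13.6 and 29.4 CPM in blue and 34.9 and 29.9 CPM in red. These counts are of the precursor region in a library of long RNA, and mature miR156 was not measured.

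The precursor lies inside the long noncoding RNA gene AT5G26146 (chr5:9135913-9139579, plus strand, 132 bases shared). That gene in turn overlaps AT5G26150, a protein kinase gene on the minus strand (chr5:9137461-9140257), by 2119 bases. AT5G26146 had 3.69, 5.51 and 11.9 CPM as the lowest, median and highest of the 6 h light libraries, against 34.9, 44.0 and 57.6 CPM in 6 h dark, a mean change of -2.80 (SE 0.24). AT5G26150 had 6.57, 9.90 and 17 CPM in 6 h light, against 35.4, 43.0 and 50.5 CPM in 6 h dark, a mean change of -2.01 (SE 0.20). MIR156f and AT5G26146 lie on the same strand, so strand could not separate their shared reads. For AT5G26146 and AT5G26150, whether the counting used strand is not given in the sources used here. Reads of the shared stretches thus cannot be assigned to 1 gene, and the 3 members are not independent. The count of MIR156f was 0.357 to 0.559 of that of AT5G26146 across the 6 h light libraries, against 0.426 to 0.716 across the 6 h dark libraries. The count of AT5G26150 was 1.43 to 2.08 times that of AT5G26146 in 6 h light, against 0.806 to 1.18 times in 6 h dark. These last ranges do not overlap: the counts assigned to the kinase gene fell by a smaller factor than those assigned to the noncoding gene. Since shared reads cannot be assigned, the change of each gene's own RNA was not resolved.

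**Figure D3:**
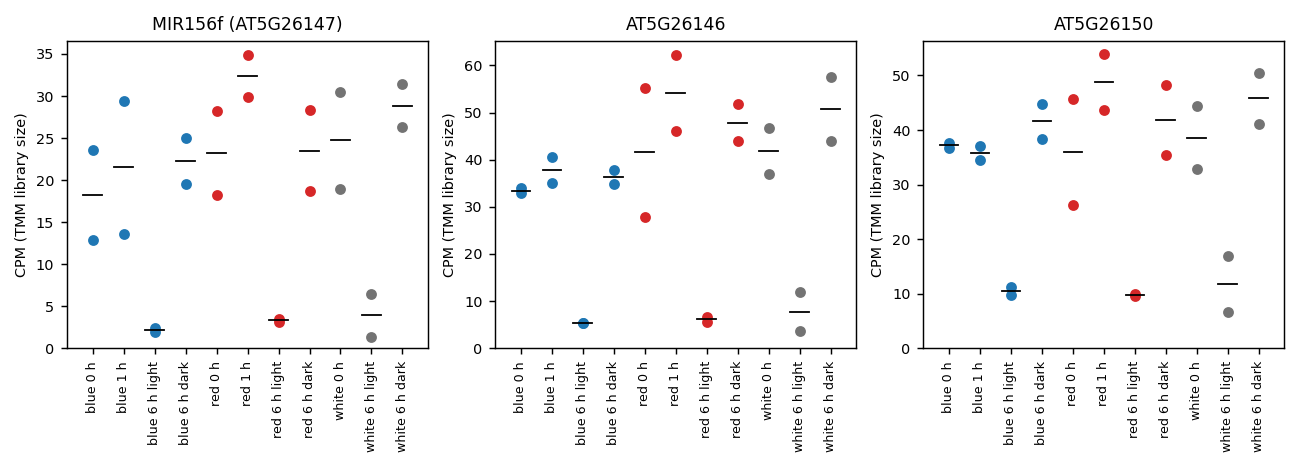
Points are the libraries of each group, in CPM on the TMM library size, and the short lines are group means, for MIR156f and the overlapping genes AT5G26146 and AT5G26150. In each colour both 6 h light points lie below both 6 h dark points, and the white 6 h light pair is the widest apart, at 1.39 and 6.44 CPM for MIR156f.

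Those of the other MIR156 loci that had enough counts fell as well. Of the 9 others, 5 had enough counts to test. MIR156g and MIR156h had 0 and 9 counts over all libraries, and MIR156i and MIR156j were not among the genes counted. In the mean of the 3 colours edgeR called all 5 lower, against 25.9% of all genes kept. By colour, only MIR156a and MIR156c were called lower in each. This family and those below were drawn up after the members were known. MIR156a had 0.770 to 2.29 CPM in 6 h light, against 5.08 to 8.41 CPM in 6 h dark (-2.19, SE 0.25, edgeR adjusted p = 3.94e-06). MIR156c had 14.2 to 26.8 CPM in 6 h light, against 47.7 to 65.4 CPM in 6 h dark (-1.39, SE 0.14, adjusted p = 1.15e-06 by edgeR). For both, all 6 h light libraries lay below all 6 h dark libraries, as they did for 12.9% of genes kept. This also held for MIR156d, while for MIR156b and MIR156e the libraries of the 2 conditions overlapped. MIR156b, MIR156d and MIR156e changed by -1.38, -1.59 and -1.98, from at most 0.514, 1.40 and 0.953 CPM in any 6 h dark library. MIR156b was not called in red (-1.14) or white (-1.10), and MIR156d was not called in red (-0.54). MIR156e was not called in blue (-2.04) or white (-1.51).

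Among the SPL genes that carry a miR156 site the changes went both ways. SPL9 rose to 3.05 to 4.34 CPM in 6 h light, against 0.563 to 0.762 CPM in 6 h dark (2.43, SE 0.19, edgeR adjusted p = 7.89e-08). SPL15 rose to 1.88 to 2.93 CPM in 6 h light, against 0.776 to 1.13 CPM in 6 h dark (1.21, SE 0.14, edgeR adjusted p = 5.49e-06). In both genes the libraries of the 2 conditions did not overlap, and the share of all genes separated in this direction was not counted. In total 3 of 10 tested SPL genes were called higher and 4 lower, against 32.5% and 25.9% of all genes kept. SPL11 was the third called higher (0.29), and its call was lost with library totals alone (0.17, adjusted p = 0.175 by edgeR). The lower ones were SPL5 (-1.19), SPL13B (-0.52), SPL4 (-0.75) and SPL6 (-0.20). In red alone these changed by -1.07, -0.20, 0.04 and 0.02, without a call. SPL4 changed by -0.04 in blue and -2.24 in white. Levels were low for SPL5 (mean 0.414 CPM in 6 h light, 0.946 CPM in 6 h dark) and SPL4 (0.267 and 0.379 CPM). The calls of SPL4 and SPL6 were lost without single libraries, for example SPL4 (-0.54) without blue 6 h dark replicate 1. SPL15 was higher already at 1 h, by 1.60 in blue (edgeR adjusted p = 0.000767) and by 1.25 in red (edgeR adjusted p = 0.00684), while SPL13B was lower in blue, by -0.64 (SE 0.13, edgeR adjusted p = 0.00656). At that time 8.13% of genes were called in blue and 4.61% in red, and the tested MIR156 loci other than MIR156f held no call in either colour.

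**Figure D4:**
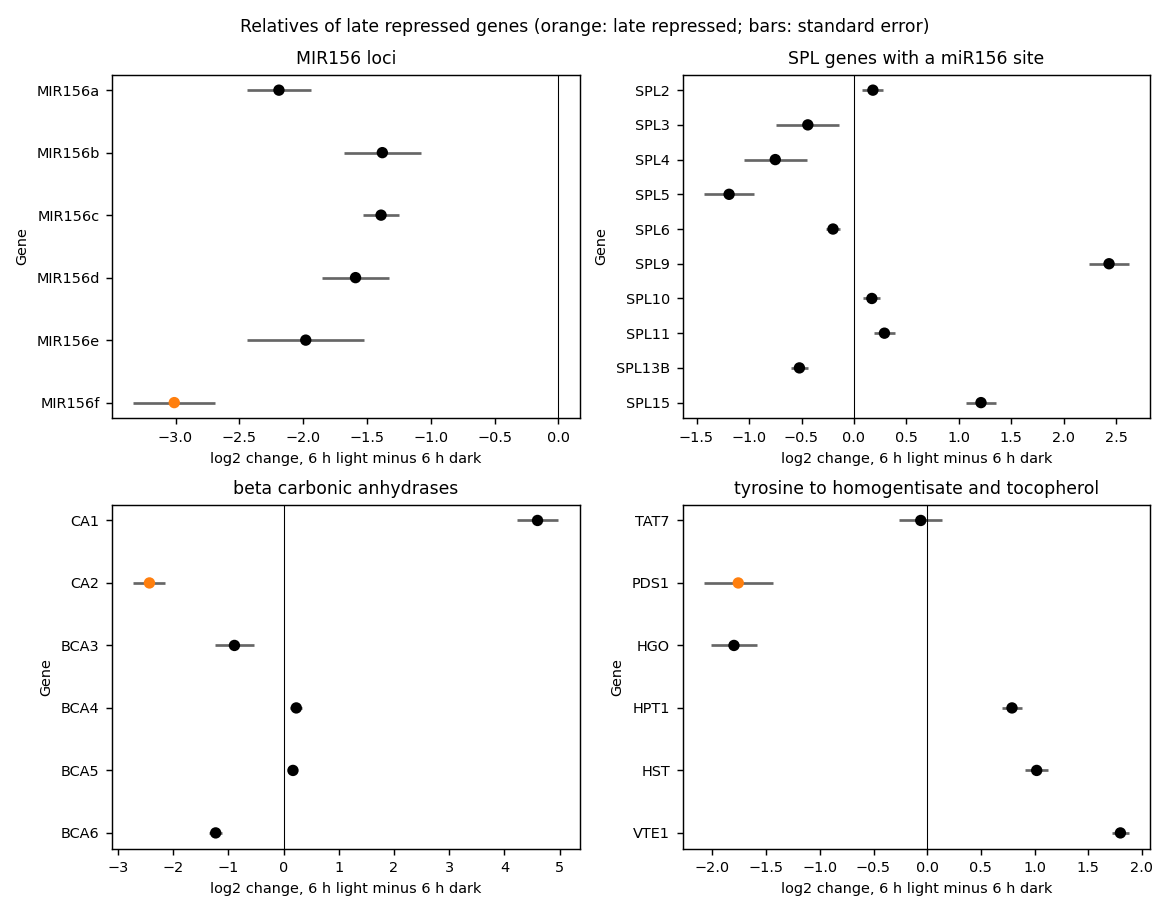
Points are log2 changes of 6 h light minus 6 h dark, averaged over the 3 colours, with bars for 1 standard error, in 4 families, with late repressed genes in orange and their relatives in black. The 6 MIR156 loci with a value lie below 0 while SPL9 stands at 2.43, and CA2 at -2.43 and CA1 at 4.60 lie on opposite sides of 0.

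Some members encode metabolic enzymes. CA2 (AT5G14740) is a beta carbonic anhydrase, which interconverts CO2 and bicarbonate. It had 802 and 1038 CPM in blue 6 h light, against 3795 and 4350 CPM in blue 6 h dark. In red it had 343 and 602 CPM in 6 h light, against 3439 and 2704 CPM in 6 h dark, and in white 399 and 1124 CPM in 6 h light, against 3780 and 4505 CPM in 6 h dark. The 6 h light libraries held less than the lowest dark value in every colour, and the mean change was -2.43 (SE 0.29). CA1 (AT3G01500), the carbonic anhydrase of the chloroplast stroma, moved the other way. It rose to 669 to 1917 CPM in 6 h light, against 23.9 to 99.8 CPM in 6 h dark (4.60, SE 0.38, edgeR adjusted p = 1.20e-07). Of the 5 relatives of CA2, 2 were called higher and 2 lower, against 32.5% and 25.9% of all genes kept. BCA4 (0.23), not called here, was called higher without blue 6 h dark replicate 1 (0.28). BCA6 fell to 28.9 to 40.6 CPM in 6 h light, against 62.4 to 91.1 CPM in 6 h dark (-1.23, SE 0.12, adjusted p = 6.79e-07 by edgeR). The call of BCA3 (-0.89) was lost without any of 7 single libraries, at edgeR adjusted p-values up to 0.120 without blue 6 h dark replicate 2. That of BCA5 (0.17) was lost with RLE size factors (0.14, edgeR adjusted p = 0.0597).

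PDS1 (AT1G06570) encodes 4-hydroxyphenylpyruvate dioxygenase, which makes homogentisate from a product of tyrosine. Homogentisate is either broken down or used to build plastoquinone and tocopherol. PDS1 had 46.6, 94.6 and 155 CPM as the lowest, median and highest of 6 h light, against 195, 327 and 410 CPM in 6 h dark (mean change -1.76, SE 0.32). In all 11 groups the library numbered 2 was higher than that numbered 1. HGO (AT5G54080), which breaks homogentisate down, fell to 47.9 to 98.5 CPM in 6 h light, against 174 to 347 CPM in 6 h dark (-1.80, SE 0.21, edgeR adjusted p = 5.19e-06). Of the 5 genes tested beside PDS1, 3 were called higher and 1, HGO, lower, against 32.5% and 25.9% of all genes kept. The 3 higher ones lie on the routes from homogentisate to plastoquinone and tocopherol. HST, of plastoquinone synthesis, rose by 1.02 (edgeR adjusted p = 1.51e-06), and HPT1 and VTE1, of tocopherol synthesis, by 0.79 (edgeR adjusted p = 4.58e-06) and 1.80 (edgeR adjusted p = 2.42e-10). The aminotransferase TAT7, which stands before PDS1, was not called in the mean (-0.06, SE 0.20). By colour it changed by -0.04 in blue, -0.77 in red and 0.65 in white, without a call. At 1 h it was higher in blue (1.71, SE 0.35, edgeR adjusted p = 0.00598) and not called in red (0.98, SE 0.35).

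The promoters of OLEO3 and of AT2G47780, described next, are shown because each holds a repeated G-box, the letters CACGTG, which are bound by bZIP and bHLH factors of the light response. Each sequence is the 250 bases before the annotated gene start in TAIR10.1, read 5′ to 3′ on the strand of the gene, at chr5:20819818-20820067 and chr2:19569790-19570039, both on the plus strand. Capitals mark G-boxes and, in OLEO3, also the letters ACTCAT and CACATG.
OLEO3 promoter: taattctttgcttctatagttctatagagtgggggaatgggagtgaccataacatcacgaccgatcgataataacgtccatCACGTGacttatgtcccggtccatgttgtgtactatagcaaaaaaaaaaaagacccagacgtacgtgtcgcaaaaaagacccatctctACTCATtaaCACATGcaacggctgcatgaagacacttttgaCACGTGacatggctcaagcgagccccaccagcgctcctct
AT2G47780 promoter: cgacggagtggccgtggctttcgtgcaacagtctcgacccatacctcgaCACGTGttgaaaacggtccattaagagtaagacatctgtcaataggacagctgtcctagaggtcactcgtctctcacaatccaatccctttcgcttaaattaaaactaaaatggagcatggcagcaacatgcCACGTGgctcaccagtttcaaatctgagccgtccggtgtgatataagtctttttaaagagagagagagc
Over all members, searched on both strands, CACGTG occurred in 9 of 31 promoters (29%), against 7.20% of the promoters of 22843 genes kept. Among the 9 were AT1G73120, AT2G35820, M10, AT2G47780, AT3G17580, AT5G04120, AT5G39520 and OLEO3. CACATG, a related letter string bound by phytochrome-interacting factors, occurred in 8 promoters (25.8%, against 11.4%), and TATCCA, a sugar response element, also in 8 (25.8%, against 13.9%). ACTCAT and GATAAG each occurred in 4 (12.9%), against 11.9% and 12.4% of all promoters. The auxin response letters TGTCTC occurred in 1 (3.23%, against 10.8%) and AAATATCT in 0 (against 4.84%), and 10 members had none of these letters. The median mean change was -2.28 in members with a G-box and -2.09 in the 22 without one.

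Proteins of oil bodies, the droplets in which seeds store fat, contributed OLEO3 and AT2G47780. OLEO3 (AT5G51210), an oleosin, had 2.57, 5.38 and 6.20 CPM as the lowest, median and highest of 6 h light, against 26.0, 29.0 and 35.1 CPM in 6 h dark (mean change -2.59, SE 0.16). AT2G47780, of the rubber elongation factor family that coats lipid droplets, had 14.5, 31.7 and 63.1 CPM in 6 h light, against 156, 189 and 223 CPM in 6 h dark (-2.51, SE 0.19). Both genes thus kept under 20% of the dark level, at 16.8% and 18.6%. Over all genes kept 32.5% were called higher and 25.9% lower. Of 6 other oil body genes, 1 was called, LDAP1, of the same family as AT2G47780. It rose to 37.8 to 148 CPM in 6 h light, against 26.6 to 39.7 CPM in 6 h dark (1.34, SE 0.12, edgeR adjusted p = 3.25e-07). The seed oleosins OLEO1, OLEO2 and OLEO4 had changes of 0.16, -0.40 and 0.15 with SEs of 1.12, 0.78 and 1.00. OLEO1 and OLEO2 also belong to a list of 8 seed storage markers, none of which was called. The summed level of that list ran from 4.88 to 235 CPM in 6 h light libraries, against 7.76 to 567 CPM in 6 h dark libraries. The part of seed material in the levels of OLEO3 and AT2G47780 was not tested.

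Membrane and signalling proteins followed. PIP2;4 (AT5G60660), a plasma membrane aquaporin, had 46.0, 64.7 and 106 CPM in 6 h light, against 192, 241 and 332 CPM in 6 h dark (mean change -1.88, SE 0.20). The other 7 PIP2 genes changed by -0.18 to 0.61, with 3 called higher and 1 lower, against 32.5% and 25.9% of all genes. The call of PIP2;3 (0.26) was lost with library totals alone (0.15, edgeR adjusted p = 0.135) and without any of 4 single libraries, and that of PIP2;7 (-0.18), the lower one, without blue 6 h light replicate 1 (edgeR adjusted p = 0.0549). GASA4 (AT5G15230), a small cysteine-rich protein of a gibberellin-induced family, kept the largest share of its dark level, 35.1%. It had 607, 912 and 1093 CPM in 6 h light, against 2233, 2468 and 2789 CPM in 6 h dark (-1.51, SE 0.12). Of the other 5 genes of that family 3 were called lower and 1 higher, against 25.9% and 32.5% of all genes. One of the lower calls, GASA2, rests on few counts, with at most 0.0758 CPM in 6 h light and 0 to 2.08 CPM in 6 h dark, and was lost without any of 9 single libraries (edgeR adjusted p = 1 without blue 6 h dark replicate 1). GASA5, also called lower (-0.78, SE 0.23), had means of 0.664 CPM in 6 h light and 1.07 CPM in 6 h dark. It was called in white (-1.88) but not in blue (-0.20) or red (-0.26). GASA1 fell (-0.81, SE 0.14, edgeR adjusted p = 0.000154) and GASA6 rose (1.24, SE 0.10, edgeR adjusted p = 1.46e-07). The receptor-like kinase gene CRK28 had 7.29 to 14.6 CPM in 6 h light, against 30.4 to 43.8 CPM in 6 h dark (-1.77, SE 0.12). AT3G54510, of the ERD4 family of membrane proteins, had 1.30 to 6.25 CPM in 6 h light, against 21.6 to 27.8 CPM in 6 h dark (-2.79, SE 0.28). PIP2;4, GASA4, CRK28 and AT3G54510 differ in function. In each, all 6 h light libraries lay below all other libraries, as in 30 members, against 6.24% of genes kept. The rule used these libraries, so nothing is read from this separation.

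The greatest change was that of AT2G39855, which RefSeq names only as a plant protein. It had 0.565 and 1.11 CPM in blue 6 h light, against 12.4 and 13.4 CPM in blue 6 h dark. In red it had 1.44 and 1.16 CPM in 6 h light, against 20.6 and 16.4 CPM in 6 h dark, and in white 0.239 and 1.78 CPM in 6 h light, against 18.3 and 11.7 CPM in 6 h dark. The 3 colours gave nearly the same change, -3.87, -3.83 and -3.86 in blue, red and white. White replicate 2 lay above white replicate 1 by a wide margin, and the mean change of -3.85 was -4.58 without it. REM1 (AT4G31610), a DNA-binding protein of the B3 family, was the only member described as a transcription factor. It had 0.491, 1.03 and 1.51 CPM as the lowest, median and highest of 6 h light, against 5.84, 7.50 and 11.2 CPM in 6 h dark (-3.04, SE 0.26).

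The remaining protein-coding members can be given by role. The F-box genes AT2G17036 and AT1G73120, whose products select proteins for ubiquitination, changed by -2.70 (SE 0.19) and -2.28 (SE 0.24). The acyltransferase family gene AT2G39980 had 6.05 to 27.1 CPM in 6 h light, against 65.7 to 107 CPM in 6 h dark (-2.68, SE 0.31), and the phosphoglycerate mutase family gene AT5G04120 had 4.78 to 25.8 CPM in 6 h light, against 29.4 to 79.7 CPM in 6 h dark (-2.60, SE 0.24). AT5G24580, with a heavy metal transport domain, changed by -2.40, the lipid transfer family gene AT4G22490 by -2.11, and AT4G16680, a P-loop hydrolase, by -2.07. These 7 genes kept from 15.7% to 23.8% of the dark level. M10, a late embryogenesis abundant protein, changed by -2.22, the SsrA-binding protein gene AT3G17580 by -2.06, the glycosyl hydrolase gene AT3G47010 by -1.97 and the NC domain gene AT5G06370 by -1.81. The smaller changes were those of AT2G35820, annotated as ureidoglycolate hydrolase, at -1.68, of the oxidoreductase gene AT5G01670 at -1.63 and of AT4G31290, a ChaC-like enzyme of glutathione breakdown, at -1.57. Of the other 5 genes of ureide breakdown, the pathway of AT2G35820, 2 were called lower and 1 higher. AAH at -1.15 and UGLYAH at 0.67 were among them. Over all genes kept 25.9% were called lower and 32.5% higher. With RLE size factors UAH (-0.25, edgeR adjusted p = 0.0293) and UOX (-0.11, edgeR adjusted p = 0.0413) were called lower as well, which makes 4. Of the other 2 gamma-glutamyl cyclotransferase genes, relatives of AT4G31290, 1 was called, GGCT2;3 at 0.80. Genes with no described product were AT5G27889 (-2.48), AT4G34881 (-1.72) and AT5G39520 (-2.38), and the transcribed pseudogene AT5G14840 changed by -1.77. By type the members comprised 28 protein-coding genes, 1 noncoding RNA gene, 1 microRNA gene and 1 pseudogene.

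Members were uneven along the genome. Chromosome 5 held 14 of 31 (45.2%, against 23.2% of genes kept), and chromosome 1 held 2 (6.45%, against 26.4%). The MIR156f locus contributes 3 to the first count. Other pairs within 100000 bases were CA2 with AT5G14840, 35662 bases apart, and AT2G39855 with AT2G39980, 48175 bases apart. In all, 17 members overlap another annotated gene, 12 of them one on the other strand, so that their counts are uncertain to the extent of the shared bases. Outside the MIR156f locus the overlaps ran from 1 to 532 bases. The 122 bases that PDS1 shares are with AT1G06560, whose own change was 0.23, while CRK28 shares 470 bases with its relative CRK29 (-0.72) and AT4G16680 shares 362 with AT4G16670 (-1.61).

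The colours are set side by side as a description, since the rule asked for a change of at least 1.5 in each of them and so left out genes that answered 1 colour only. The members' median 6 h changes were -2.15 in blue, -1.95 in red and -2.37 in white, against 0.03, 0.01 and 0.01 for all genes. AT1G73120 had 33.1 and 55.5 CPM in blue 6 h light, 30.7 and 49.1 CPM in red 6 h light, and 9.89 and 29.1 CPM in white 6 h light. Its change in red minus that in white was 1.32 (SE 0.57), with the white libraries lower and the higher of them close to the lower red one. The largest difference between blue and red was that of REM1, -1.13 (SE 0.61). The SE of such a difference had a median of 0.55 over the members. The edgeR test of these differences called 0 of 31 members in blue minus red, in blue minus white and in red minus white, where it called 0.0956%, 0.0608% and 2.72% of all genes. At an unadjusted p under 0.05 the members numbered 0, 2 and 1, and DESeq2 called 0 in each. The rule used the same libraries, so nothing is read from the members' counts, and the absence of a call does not show equal responses.

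**Figure D5:**
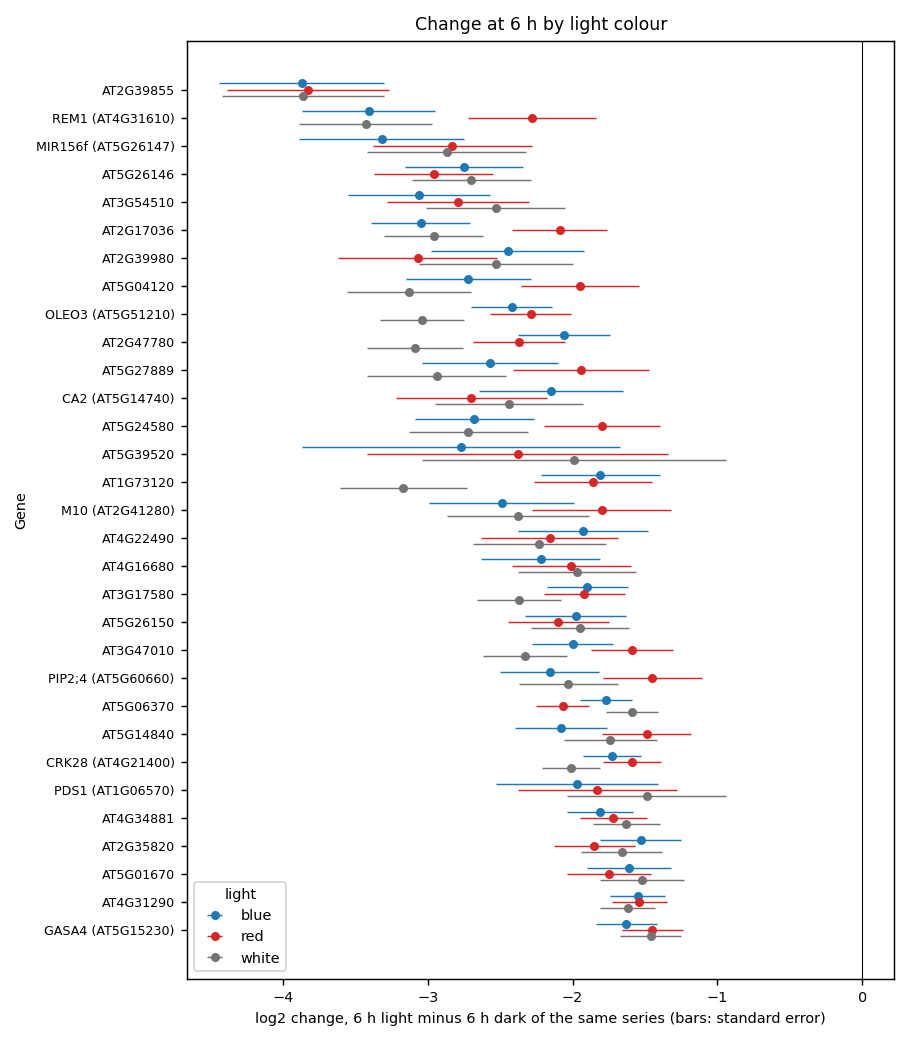
Points give the log2 change of 6 h light minus 6 h dark within the blue, red and white series, with bars for 1 standard error, for each late repressed gene. The highest point lies at -1.45, and AT1G73120 shows white at -3.17 apart from blue at -1.81 and red at -1.86.

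The white libraries disagreed with each other on these genes. Replicate 2 of white 6 h light was higher than replicate 1 in 31 of 31 members, with a median ratio of 2.46, whereas over all genes kept 50.9% were higher and the median ratio was 1. A ratio of at least 2.46 was seen in 2.37% of all genes. In blue light 22 of 31 members were higher in replicate 2, with a median ratio of 1.27, and in red light 21 of 31, with 1.12. Without white replicate 2 the median white change was -3.31, and without white replicate 1 it was -1.84. Without white replicate 2 the count called in red minus white was 4, AT1G73120, AT2G17036, AT3G47010 and CRK28, each with the smaller change in red, again on libraries the rule used. With either library left out, all 31 members still had a mean change below 0. The rule asked for a fall in each colour, so nothing is read from this.

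The start of the white series was also looked at. White 0 h, which the rule did not use, was compared with the mean of blue and red 0 h, and edgeR called 0 of 31 members and 0% of all genes, with 0 members and 205 genes at an unadjusted p under 0.05; DESeq2 also called 0 genes. The members' differences ran from -0.34 to 0.38 with a median of 0.02. Blue 0 h was not tested against red 0 h, and with 2 libraries a group the absence of a call does not show equal levels.

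The members were set beside lists of other genes with known roles in dark-grown seedlings, none of which held a member. The 8 genes that the rule leaves out by name stand on these lists, so the absence of members is in part set by the rule. Of 24 measured genes of sugar starvation and amino acid breakdown, 16 were lower and 3 higher in the mean at 6 h. BCAT2, of branched-chain amino acid breakdown, had 11.3 to 40.7 CPM in 6 h light, against 160 to 322 CPM in 6 h dark (-3.49, SE 0.33, edgeR adjusted p = 5.41e-07). Of 7 genes of oil breakdown and the glyoxylate cycle, 5 were lower and 0 higher, PCK1 among them (-1.49, SE 0.08, edgeR adjusted p = 1.91e-09). Auxin response genes were lower in 15 of 20 and higher in 1, and growth-regulating factors in 4 of 9 and 1. Of 12 regulators that act in darkness 5 were lower and 6 higher, of 18 xyloglucan enzymes and expansins 8 and 7, and of 9 ATG8 autophagy genes 5 and 1. Over all genes kept 25.9% were lower and 32.5% higher.

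Markers of organs were followed because whole seedlings were used. The summed level of 5 root markers was 135 to 218 CPM in 6 h light libraries, against 122 to 175 CPM in 6 h dark libraries. Of the 5, 3 were called higher and 1 lower, against 32.5% and 25.9% of all genes kept. The summed level of 3 guard cell markers was 11.1 to 26.0 CPM in 6 h light, against 22.4 to 38.8 CPM in 6 h dark, with 2 of 3 called lower in the mean. By colour the sums were 26.0 and 22.8 CPM in blue 6 h light, against 38.8 and 26.2 CPM in blue 6 h dark. In red they were 24.7 and 25.5 CPM in 6 h light, against 22.4 and 23.6 CPM in 6 h dark, and in white 11.1 and 12.3 CPM in 6 h light, against 29.3 and 31.5 CPM in 6 h dark. The sums were lower in blue and white light and not in red. At 1 h they were 20 and 16.3 CPM in blue light and 18.7 and 16.4 CPM in red light. The part of guard cell share in the members' levels was not tested. No marker was at 0 in all libraries.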

How the data were processed

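RNA was sequenced in 22 libraries, 2 in each of 11 groups. The authors deposited a table of raw counts, whole numbers of reads per gene and library, per the file headers. The build is TAIR10, per the submitters' processing notes; the sources used here do not give the aligner, counter or strand setting. Gene names, coordinates and sequences came from RefSeq's TAIR10.1 by locus tag, which matched 32835 genes and left 767.

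The rule used CPM of column totals with 1 added. Genes were filtered with filterByExpr (minimum count 10), which kept 23011 genes, and tested in R 4.3.3 by quasi-likelihood with edgeR 4.0.16 (TMM, 1 mean per group, 11 residual degrees of freedom, Benjamini-Hochberg over the genes kept, threshold 0.05). The code was tested on simulated data. The mean change is that of the 3 colours. Alternatives were RLE factors, library totals, other filters, DESeq2 1.42.0, no organelle genes, only the libraries compared, a replicate block and each library left out.

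The members and lists were chosen with earlier results of these data known. Named genes were, by rule, the 15 members with the lowest mean change among those with at least 10 CPM in 6 h dark, transcription factors, members on a list or called between colours (none), the 3 genes on either side of the limit, and the 4 members drifting most in darkness each way; other members and relatives are named as well. The sequence of 1 promoter is not reported here.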

Additional observations from a re-analysis of the deposited data

How the results depend on the processing

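The number of genes that meet the rule depends on its settings. It was 31 as described and 22 with TMM library sizes, 20 of them shared. A pseudocount of 0.1 gave 49 genes, with 29 members among them, and one of 5 gave 17, with 16 members. A 6 h limit of -1 gave 126 and one of -2 gave 9. A 1 h limit of 0.25 gave 12 and one of 1 gave 76. Leaving out each of 20 libraries in turn gave 20 (without red 0 h replicate 1) to 34 genes, and 8 members met the rule every time. In the differences between colours the members called were 0 under each normalisation, filter, tool and set of libraries, and 0 to 4 in red minus white when 1 library was left out (4 without white 6 h replicate 2); all rest on libraries the rule used. Same-numbered libraries of a series had correlated deviations, at 0.0478 to 0.574 (14 of 15 pairs over 0.1), and the labels do not say what the number marks. With the replicate block edgeR called 0 members in each difference, and 72, 28 and 1449 genes in all for blue minus red, blue minus white and red minus white, against 22, 14 and 627 without it; DESeq2 called 137, 177 and 1378. The block added AT5G39520 to the members lower in white, 31 in place of 30, and called BCA4 higher (0.25, edgeR adjusted p = 0.0184) and UAH lower (-0.21, edgeR adjusted p = 0.00126). Without 1 library the median 6 h change was -2.34 to -1.97 in blue, -2.07 to -2.0 in red and -3.31 to -1.84 in white. Using only library totals, all genes had a median mean change of -0.10, against 0.02, and that of the members was -2.34, against -2.22. The cause of these shifts was not tested. Single members kept a mean change of -1.42 or lower under every alternative run. The rule chose them for a fall in each colour, so this carries no support.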
